A study of Mus musculus with 6 samples.

Results

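Bcl6, Lifr and the genes of growth hormone signalling were followed in the livers of C57BL/6 mice, an inbred strain in wide laboratory use. The 10 genes were Bcl6, Lifr, Ghr, Igf1, Igfals, Socs2, Socs3, Cish, Stat5a and Stat5b. Every probe set whose only gene symbol in the platform annotation was one of these was taken, which gave 19 of the 12488 probe sets and 10 of the 8252 genes named by a single symbol. Of these 19, the intensity of 16 exceeded a floor of 68.9 on at least 3 of the 6 arrays, and they entered the comparison, and each of the 10 genes kept at least 1. The genes were chosen by their role in the pathway and, for Bcl6 and Lifr, by their measured difference between the diets, which was known beforehand. Their values are therefore descriptions, printed without p-values. Whether limma called them is stated, but nothing is read from those calls.

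Mice were kept for 12 weeks on a Western-style high-fat diet (3 arrays) or on a low-fat diet (3 arrays), and total liver RNA was measured on 1 array per sample. The labels name no other allele, agent or treatment, and they give neither the sex and age of the mice nor the hour of collection. They mention LDL receptor deficiency as a keyword but describe all 6 samples as C57BL/6. Nothing says whether an array holds 1 mouse or a pool, so the spread between arrays may be technical in part.

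Growth hormone binds its receptor, encoded by Ghr, on hepatocytes, and the attached kinase JAK2 then phosphorylates STAT5A and STAT5B. The phosphorylated STAT5 proteins enter the nucleus and switch on Igf1 and Igfals, which supply the circulating IGF1 complex, and Cish, Socs2 and Socs3, whose products shut the receptor off again. Bcl6 encodes a zinc finger repressor whose DNA sites overlap those of STAT5, and growth hormone is known to lower Bcl6 transcript in the liver. Lifr encodes the receptor for leukaemia inhibitory factor, which signals with gp130 mainly through STAT3.

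Bcl6 and a pair of Lifr probe sets were lower on the high-fat diet, while the feedback genes and the Stat5 genes had fold changes above 0 that did not pass the test. The values given are deposited linear intensities, scaled by the authors, and fold changes are high-fat minus low-fat diet on a log2 scale. Limma, with p-values adjusted over all 8950 tested probe sets by Benjamini and Hochberg, called 3 of the 16 tested probe sets at an adjusted p of 0.05, all lower on the high-fat diet. Of all probe sets tested, 0.827% were called, 0.402% as higher and 0.425% as lower. In 8 of the 16 all arrays of a diet lay on the same side of all arrays of the other. High-fat arrays were the higher ones in 4 and the lower ones in 4. Of all tested probe sets 14.1% did not overlap, 7.34% with higher and 6.76% with lower high-fat arrays. Because the choice of genes used the same comparison, nothing is read from either count.

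**Figure D1:**
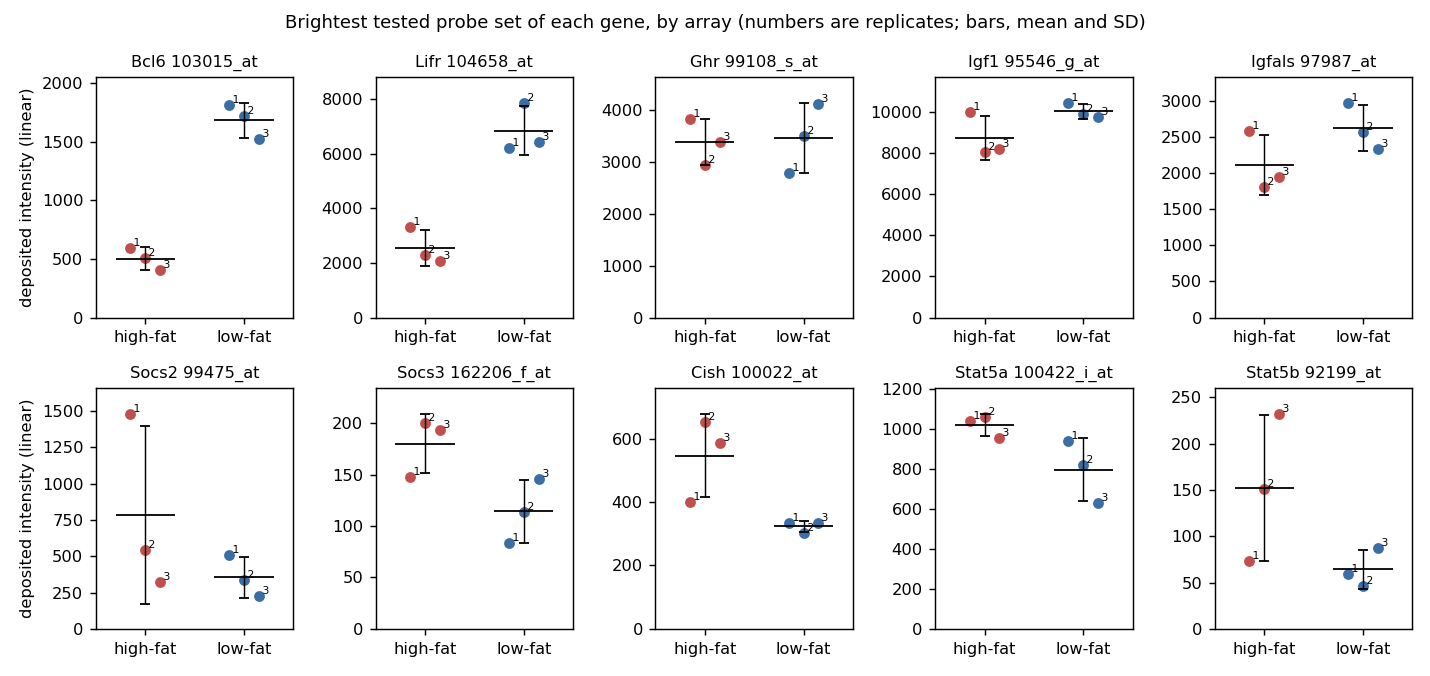
Deposited intensity (linear axis from 0) of the brightest tested probe set of each of the 10 genes, with 1 point per array, high-fat left of low-fat, the replicate number beside each point and bars for the mean and SD of 3 arrays. Bcl6 and Lifr 104658_at show diets that lie far apart, with Bcl6 at 404.5 to 595.6 in high-fat livers and 1520 to 1808 in low-fat livers, while the Ghr points of the diets are mixed.

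The arrays read as liver on both diets. After removal of 2% of probe sets at either end, the mean intensity was 500.4 on every array, and array medians ran from 171 to 188. All 8 hepatocyte markers on the array were tested, 0 passed, and their summed intensity ran from 117425 to 153834 in high-fat livers and from 123938 to 158159 in low-fat livers. Of the 8, 4 lay above and 4 below 0 in fold change, and the diets did not overlap in 1, Tat. It had 13796.7, 9815.4 and 10582.1 in high-fat livers and 18010.4, 19399.7 and 21257.6 in low-fat livers, and limma's adjusted p was 0.0742. Markers of Kupffer cells and macrophages summed to 11348 to 13518 in high-fat livers and 8295 to 11327 in low-fat livers, with 11 of 11 tested members above 0 in fold change and 0 called. Over all genes tested, 3363 of 6557 lay above 0. Among the 7 T and NK cell markers with a probe set, Cd3d, Cd8a and Cd8b1 lay below the floor on all 6 arrays. Cd4 was above it on all 6, and Cd3g and Klrd1 on 4 each. The 3 tested T and NK cell markers summed to 316.3 to 446.5 in high-fat livers and 339 to 459 in low-fat livers. Those of B cells, a cell type known for high BCL6 at one stage, summed to 1780 to 2207 in high-fat livers and 1808 to 1959 in low-fat livers. Markers of pancreatic acinar cells, whose RNA can enter liver samples at dissection, summed to 1613 to 10311 on the high-fat diet, against 1678 to 5905 with low-fat feeding, and were highest on array 2 of either diet; their part in the values below was not tested. In whole liver, fewer cells of a type and less RNA per cell cannot be told apart.

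Bcl6, probe set 103015_at, had intensities of 595.6, 505.4 and 404.5 on the high-fat arrays and 1808.5, 1718.0 and 1519.6 on the low-fat arrays. The lowest low-fat array was well above the highest high-fat array. The means were 502 ± 95.6 in high-fat livers and 1682 ± 148 in low-fat livers (SD, n = 3 each), a 3.38-fold lower level on the high-fat diet and a log2 fold change of -1.76 ± 0.17 (SE). It was the largest change among the 16 tested probe sets of the 10 genes. With each array left out in turn the log2 fold change ran from -1.89 to -1.61, and the probe set stayed past the threshold in all 6 fits. Since Bcl6 was chosen by this difference, these fits describe its spread and add no support. Bcl6 has a single probe set here, so no second reading bears on its value.

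The DNA before the Bcl6 start sites is shown because it holds the core that STAT5 and BCL6 sites share. RefSeq windows of 300 bases, from 250 before to 50 after each annotated start (GRCm38.p6), were matched by symbol for 9 of the 10 genes, all but Socs2. They were searched for TTCNNNGAA, which reads the same on both strands and includes all matches of the tighter TTCCNNGAA. Bcl6 has 2 windows. The first sequence is the stretch before the start that lies further into the gene, chr16:23981284-23981533 on the minus strand, and the second is the stretch before the outer start, chr16:23988853-23989102 on the minus strand. Capitals mark each match.
Bcl6 inner start: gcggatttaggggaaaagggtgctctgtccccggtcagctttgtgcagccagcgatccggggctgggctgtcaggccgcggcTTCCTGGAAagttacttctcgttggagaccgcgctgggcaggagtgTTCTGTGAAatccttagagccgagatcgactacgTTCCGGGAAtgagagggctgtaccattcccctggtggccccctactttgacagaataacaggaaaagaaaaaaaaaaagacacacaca
Bcl6 outer start: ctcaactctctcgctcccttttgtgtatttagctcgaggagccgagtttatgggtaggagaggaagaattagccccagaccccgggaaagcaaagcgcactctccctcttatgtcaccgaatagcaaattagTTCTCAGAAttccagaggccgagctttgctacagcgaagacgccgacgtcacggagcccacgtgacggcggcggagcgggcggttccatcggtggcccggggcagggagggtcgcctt

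The inner Bcl6 window held 3 cores, which began 168, 122 and 88 bases before the start, and 2 of these fit the tighter form. Of all 32851 windows in the RefSeq table, 8.30% held at least 1 core, 0.457% at least 2 and 0.0335%, or 11 windows, at least 3. The tighter form was in 4.81% of windows. Among the 9 genes with windows, 4 had a core in at least 1 window (Bcl6, Igfals, Socs3 and Cish), against 9.55% of all genes in the table. A gene with more windows has more chances of a match. By window, 6 of the 16 windows of these genes held a core, beside the 8.30% of all windows. Because the genes were chosen by their role in the pathway, nothing is read from these shares. No core was found in the windows of Lifr, Ghr, Igf1, Stat5a or Stat5b, which says only that these letters are absent there. A match describes the sequence and is not a measured binding site.

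Stretches of 60 bases around the cores of the feedback genes Cish and Socs3, and around an Igfals core, are shown for comparison with Bcl6. They lie at chr9:107296629-107296688 on the plus strand (Cish), chr11:117969487-117969546 on the minus strand (Socs3) and chr17:24878147-24878206 on the plus strand (Igfals, the second of its 3 windows), all in GRCm38.p6. The Cish pair sits at the annotated start itself, with the first core beginning on the first transcribed base. Igfals also has a core in its first window, TTCTCAGAA, 236 bases before that start, which is not shown.
Cish: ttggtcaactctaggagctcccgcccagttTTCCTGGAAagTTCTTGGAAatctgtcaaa
Socs3: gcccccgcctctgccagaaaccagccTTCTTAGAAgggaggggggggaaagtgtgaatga
Igfals: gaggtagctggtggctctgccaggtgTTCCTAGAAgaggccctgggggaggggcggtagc

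The sequence of the first core at the Cish start and of the outermost core before the inner Bcl6 start is the same, TTCCTGGAA. The measured transcripts of those genes lay on opposite sides of 0, with Bcl6 lower and Cish at a fold change above 0 on the high-fat diet. The core before the outer Bcl6 start, TTCTCAGAA, also occurs in the first Igfals window. Igfals 97987_at lay on the same side of 0 as Bcl6, at a log2 fold change of -0.33 that did not pass.

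**Figure D2:**
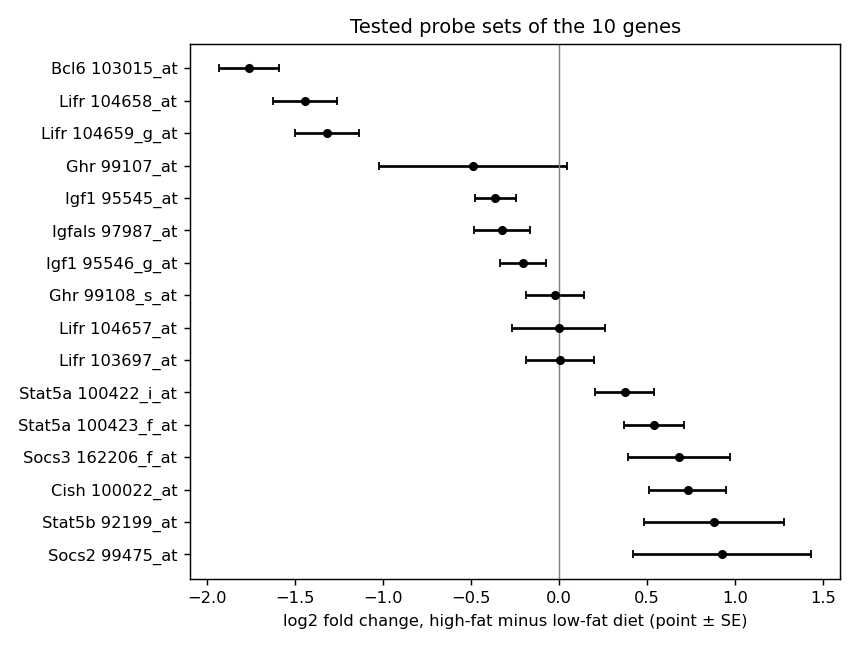
Log2 fold change, high-fat minus low-fat diet (horizontal axis), of the 16 tested probe sets of the 10 genes, sorted by value, with bars for limma's SE. Bcl6 at -1.76 and Lifr 104658_at and 104659_g_at at -1.44 and -1.32 stand to the left of the others, and the Stat5, Socs and Cish probe sets lie to the right of 0, with Socs2 at 0.92 and a wide SE of 0.50.

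Lifr was measured by 5 probe sets that did not read alike. Probe set 104658_at had intensities of 3305.9, 2292.7 and 2079.8 on the high-fat arrays and 6227.8, 7867.6 and 6438.6 on the low-fat arrays. Probe set 104659_g_at, which the annotation ties to the same source mRNA, had 1927.8, 1178.1 and 1514.4 on the high-fat arrays and 3438.8, 4222.3 and 3659.5 on the low-fat arrays. In both, the diets were fully separated. They were 2.72-fold and 2.49-fold lower on the high-fat diet, with log2 fold changes of -1.44 ± 0.18 and -1.32 ± 0.18 (SE). These probe sets share their source sequence and possibly probes, so they are not independent readings of Lifr.

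The remaining Lifr probe sets showed no such difference. Probe set 103697_at, designed from another source sequence, had 1343.2, 1736.9 and 1004.7 on the high-fat arrays and 1195.0, 1408.4 and 1373.8 on the low-fat arrays, and the low-fat values lay within the high-fat range. Its log2 fold change was 0.01 ± 0.19 (SE). Probe set 104657_at was dim, with 119.7, 130.5 and 123.6 in high-fat livers and 150.3, 95.8 and 134.9 in low-fat livers, and its log2 fold change was -0.003 ± 0.26 (SE). The signs of these near-zero values turned under some settings, quantile normalization and median scaling among them for 103697_at. The fifth, 97006_s_at, was below the floor on all 6 arrays, at 6.10 to 63.2 in high-fat livers and 12.1 to 64.1 in low-fat livers, and was not tested.

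Within an array, the ratio of 104658_at to 103697_at was 2.46, 1.32 and 2.07 on the high-fat diet and 5.21, 5.59 and 4.69 on the low-fat diet. The ratio of 104659_g_at to 104658_at had means of 0.608 ± 0.109 in high-fat livers and 0.552 ± 0.0159 in low-fat livers (SD, n = 3 each). The size of such a ratio depends on the probes, and only its difference between diets can be read. It shows an unequal change of what the first pair of probe sets and 103697_at detect, and the files do not place any of them on a Lifr transcript. Probe set 104658_at fell short of the threshold when high-fat array 2 (log2 fold change -1.38) or low-fat array 2 (-1.34) was left out, and 104659_g_at when low-fat array 2 was (-1.23).

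**Figure D3:**
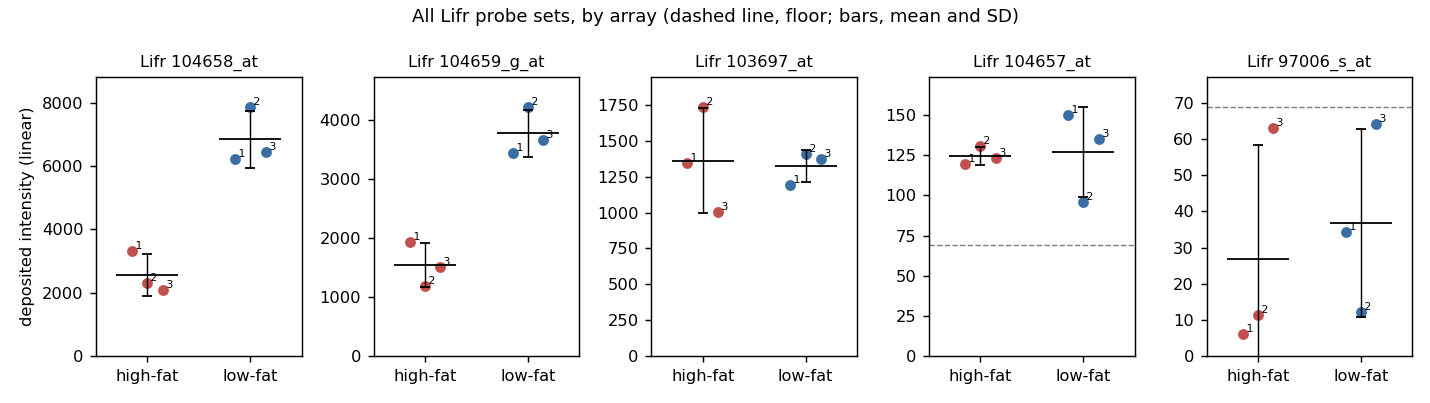
Deposited intensity (linear axes from 0, each with its own scale) of all 5 Lifr probe sets by array, high-fat left of low-fat, with bars for mean and SD of 3 arrays and a dashed line at the floor of 68.9 in the panels of dim probe sets. Probe sets 104658_at and 104659_g_at separate the diets, 103697_at and 104657_at do not, and all points of 97006_s_at lie below the floor.

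Ghr, the receptor that starts the pathway, was read by a pair of probe sets. Probe set 99108_s_at had 3823.7, 2933.2 and 3382.3 on the high-fat arrays and 2773.4, 3497.7 and 4112.9 on the low-fat arrays, so the diets overlapped throughout. Its log2 fold change was -0.02 ± 0.17 (SE), and it turned positive when high-fat array 2 was left out, or low-fat array 3. Probe set 99107_at had 620.9, 547.6 and 2119.2 on the high-fat arrays and 856.8, 955.5 and 2420.2 on the low-fat arrays. Here the array numbered 3 of each diet was far above the other two.

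The value of 99107_at changed with which of those arrays were kept. Its log2 fold change was -0.49 ± 0.53 (SE) with all 6 arrays, -1.11 when high-fat array 3 was left out, -0.01 when low-fat array 3 was, and -0.63 ± 0.18 (SE) when both were. Array 3 of either diet also had the lowest ratio of the 3' to the 5' control probe set for Gapdh, at 0.889 in high-fat livers and 0.824 in low-fat livers, against 1.04 to 1.23 on the other 4 arrays. The same ratio for pyruvate carboxylase was 2.62 on high-fat array 3 and 2.65 on low-fat array 3, against 3.78 to 7.96 on the others. For beta-actin the ratio did not set array 3 apart. It was 1.79 on high-fat array 3 and 1.75 on low-fat array 3, against 1.56 to 1.96 on the others. The part of RNA quality in the Ghr reading was not tested.

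The secreted products of the pathway had fold changes below 0 that did not pass. Igf1 encodes the growth factor that carries much of growth hormone's action on the body, and liver is its main source in blood. Its probe set 95545_at had 3160.1, 2750.8 and 3161.4 on the high-fat arrays and 4208.6, 3628.2 and 3817.9 on the low-fat arrays, with no overlap. The log2 fold change was -0.36 ± 0.12 (SE), which is 1.28-fold lower on the high-fat diet. The brighter Igf1 probe set, 95546_g_at, overlapped, at 9971.4, 8042.4 and 8197.5 in high-fat livers and 10432.5, 9894.7 and 9752.0 in low-fat livers, with a log2 fold change of -0.20 ± 0.13 (SE).

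Igfals encodes the acid labile subunit, which holds IGF1 and its binding protein in a ternary complex in plasma. Probe set 97987_at had 2579.8, 1802.4 and 1946.0 on the high-fat arrays and 2970.3, 2566.6 and 2333.2 on the low-fat arrays. Only high-fat array 1 reached into the low-fat range, and the log2 fold change was -0.33 ± 0.16 (SE). The other Igfals probe set, 162450_f_at, lay above the floor on 2 high-fat arrays, at 33.6 to 108.4 over all 3, and on 0 low-fat arrays, at 20.4 to 63.1, and was not tested. Both Igf1 probe sets and 97987_at kept a fold change below 0 in each of the 17 other settings tried, and none of them was called in any.

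The feedback genes lay on the other side of 0. Cish, whose product blocks STAT5 docking on the receptor, had 401.0, 652.1 and 587.0 on the high-fat arrays and 334.6, 301.7 and 333.3 on the low-fat arrays. All 3 high-fat arrays were above all 3 low-fat arrays, and the low-fat arrays were close together. The means were 547 ± 130 in high-fat livers and 323 ± 18.6 in low-fat livers (SD, n = 3 each), a log2 fold change of 0.73 ± 0.22 (SE). It ran from 0.59 to 0.94 with each array left out.

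Socs2, the suppressor whose loss in mice gives overgrown animals, had 1476.8, 542.3 and 326.1 on the high-fat arrays and 507.7, 333.4 and 225.8 on the low-fat arrays. High-fat array 1 stood far above the other 5, and the diets overlapped. The log2 fold change was 0.92 ± 0.50 (SE) and shrank to 0.32 without high-fat array 1, while it was 1.41 without high-fat array 3.

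Socs3, which restrains gp130 cytokine receptors as well as the growth hormone receptor, had 147.2, 199.9 and 192.8 on the high-fat arrays and 83.9, 113.5 and 145.3 on the low-fat arrays with probe set 162206_f_at. The diets were separated by a narrow gap, and the log2 fold change was 0.68 ± 0.29 (SE). The suffix of this probe set marks probes shared within a gene family, so other transcripts may add to it. The other Socs3 probe set, 92232_at, was below the floor on all arrays, at 17.4 to 47.3 in high-fat livers and 22.0 to 56.6 in low-fat livers. Macrophages also express Socs3. The macrophage marker sum given above was higher on every high-fat array than on any low-fat array. The margin was narrow, with 11348 on high-fat array 2 against 11327 on low-fat array 1. The part of macrophages in the Socs3 value was not tested.

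The Stat5 genes encode the transcription factors themselves. Stat5a probe set 100422_i_at had 1042.7, 1061.2 and 957.5 on the high-fat arrays and 943.2, 819.7 and 630.4 on the low-fat arrays, a log2 fold change of 0.37 ± 0.17 (SE). Stat5a probe set 100423_f_at had 795.3, 776.4 and 658.3 on the high-fat arrays and 443.0, 594.7 and 502.5 on the low-fat arrays, a log2 fold change of 0.54 ± 0.17 (SE). Neither overlapped between diets, and both were made from the same source sequence. Stat5a and Stat5b are near-identical neighbours in the genome, and the suffix of 100423_f_at marks family-shared probes, so Stat5a signal may hold some Stat5b.

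Stat5b, the form that carries most of the growth hormone signal in mouse liver, had 73.9, 150.8 and 231.9 on the high-fat arrays and 59.0, 46.7 and 87.5 on the low-fat arrays. All 3 high-fat arrays but only 1 low-fat array were above the floor, and high-fat array 1 lay below low-fat array 3. The probe set thus reached the 3 arrays needed for testing through its high-fat arrays. Its log2 fold change was 0.88 ± 0.40 (SE) and rests in part on the floor value, to which the low-fat values under it were raised. It was 0.50 without high-fat array 3 and 1.33 without high-fat array 1. Once the third array of each diet was dropped, the Stat5b probe set no longer had enough arrays above the floor to be tested.

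Genes whose pattern over the 6 arrays was closest to that of Bcl6 were found by the root mean square difference of log2 values, after each gene's mean was subtracted, over 6556 other genes with 1 probe set each. The nearest was Gsta2, an alpha class glutathione transferase, at 0.15, followed by Fdps, a farnesyl diphosphate synthase of cholesterol synthesis, at 0.19. Lifr itself, by 104658_at, came next at 0.22, followed by Gstt2, a theta class glutathione transferase, at 0.24, and Pspn, a neurotrophic ligand of the GDNF family, at 0.26. Gsta2 had 1135.3, 898.6 and 913.3 on the high-fat arrays and 3065.1, 3081.6 and 3236.3 on the low-fat arrays.

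**Figure D4:**
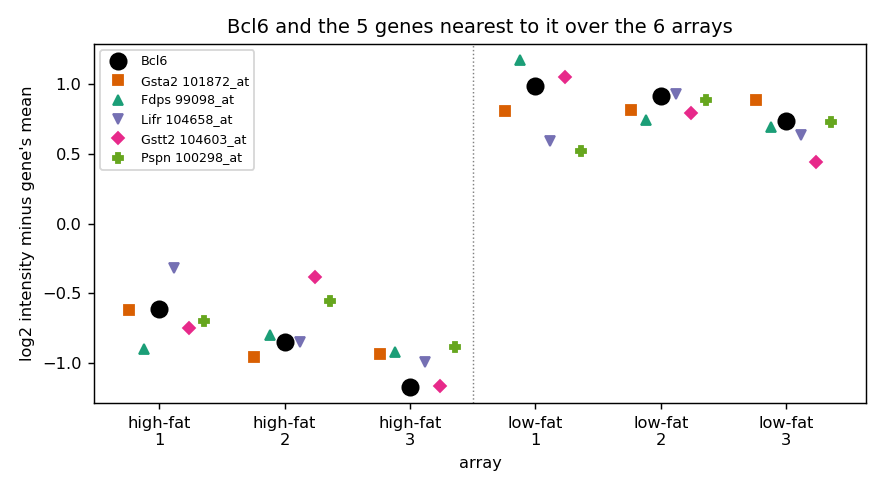
Log2 intensity minus each gene's own mean (vertical axis) on the 6 arrays, high-fat left of low-fat, for Bcl6 (large black points) and the 5 genes nearest to it, offset sideways for legibility. All 6 genes lie below their mean on the 3 high-fat arrays and above it on the 3 low-fat arrays. The root mean square difference of the 5 genes from Bcl6 is 0.15 to 0.26 log2 units.

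Nearest to Lifr 104658_at were Gsta2 at 0.19, Gsta4, another alpha class glutathione transferase, at 0.20, Ncoa2, a nuclear receptor coactivator, at 0.20, Pspn at 0.21 and Dnase1l3, a secreted nuclease, at 0.22. Gsta2 and Pspn were thus among the 5 nearest genes of both Bcl6 and Lifr. Ncoa2 was below the floor on 1 high-fat array and Dnase1l3 on 2, so their distances rest in part on the floor value, and Dnase1l3 reached the 3 arrays needed for testing through its low-fat arrays. Since both reference patterns separate the diets, their nearest genes do so by construction. Likeness over 6 arrays is a description.

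Of 9 tested genes for kinases, adaptors and other STATs of the pathway, 0 passed limma's test and 8 lay below 0. Their median log2 fold change was -0.15, beside a median of 0.008 over all 6557 genes, of which 3363 lay above 0. Jak2, the kinase bound to the growth hormone receptor, had a log2 fold change of -0.15 but intensities that overlapped, at 108.7, 301.7 and 232.0 in high-fat livers and 225.1, 233.1 and 199.0 in low-fat livers. Irs2, an adaptor of insulin and growth hormone receptors, had -1.21 ± 0.48 (SE) and an adjusted p of 0.484 from limma. Egfr, a receptor whose liver level depends on growth hormone, had -0.32 ± 0.15 (SE) with an adjusted p of 0.589. The JAK2 adaptor gene Sh2b1 had a log2 fold change of -0.17, and Stat3, which carries the gp130 signal, -0.15.

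Other brakes on JAK and STAT proteins showed 0 of 10 past the threshold, 3 above 0 and a median of -0.08. The phosphatase gene Ptpn1, whose product PTP1B acts on JAK2 and the insulin receptor, had 615.9, 569.8 and 618.0 in high-fat livers and 459.8, 381.6 and 386.7 in low-fat livers. The diets did not overlap, and its log2 fold change of 0.56 ± 0.16 (SE) had an adjusted p of 0.273 in limma. Socs1 and Socs5, relatives of the suppressors above, had fold changes of -0.25 and -0.36, both below 0 unlike those of Cish, Socs2 and Socs3, and neither passed. Pias1 had -0.33 ± 0.24 (SE) and did not pass.

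Of 9 further genes of the IGF axis, 0 passed, 4 were above 0 and the median was -0.20. Igfbp7, a relative of the IGF binding proteins, had 139.1, 178.5 and 292.3 in high-fat livers and 63.8, 61.1 and 173.4 in low-fat livers. Its diets overlapped, only 1 low-fat array was above the floor, and the log2 fold change of 1.05 ± 0.43 (SE) had limma's adjusted p at 0.500. Igfbp2, a binding protein that growth hormone lowers, averaged 6884 ± 1969 in high-fat livers and 9657 ± 1670.4 in low-fat livers (SD, n = 3 each), that is -0.51 ± 0.22 (SE) on the log2 scale, and limma's adjusted p was 0.534. Igfbp3, which joins IGF1 and the acid labile subunit in plasma, had 0.51 ± 0.26 (SE) and an adjusted p of 0.618. Igfbp6, which favours IGF2, had -0.63 ± 0.42 (SE), and the IGF1 receptor gene Igf1r -0.24. Igfbp1, which fasting and low insulin raise, spanned 289.3 to 2003 in high-fat livers and 306.2 to 1591 in low-fat livers.

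Partners of LIFR were few on the array. Of 5 tested genes of the gp130 receptor family 0 passed, and 4 had fold changes above 0, with a median of 0.30. Il6ra, the interleukin 6 receptor, was the member below 0, with 490.3, 509.5 and 295.7 in high-fat livers and 677.2, 765.1 and 600.2 in low-fat livers, a log2 fold change of -0.69 ± 0.23 (SE) and an adjusted p of 0.379 in limma. Il6st, which encodes gp130 itself, had 0.30 ± 0.19 (SE), and Osmr, the oncostatin M receptor, 0.05. Cntfr, the receptor of ciliary neurotrophic factor, had 0.38 ± 0.43 (SE), with 2 high-fat arrays and 1 low-fat array above the floor. Ctf1, the LIFR ligand cardiotrophin 1, had 0.47 ± 0.19 (SE) with an adjusted p of 0.497.

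Acute phase genes that gp130 and STAT3 switch on had 0 of 16 past the threshold, 10 above 0 and a median of 0.23. Hamp, the hormone hepcidin, was at 3196.9, 2819.0 and 2607.9 in high-fat livers and 4028.4, 8465.0 and 7591.3 in low-fat livers, with no overlap, and its adjusted p in limma was 0.0947. Saa3, a serum amyloid, was at 1.26 ± 0.32 (SE) on the log2 scale, and limma's adjusted p was 0.180. Its relative Saa2 had 1484.3, 7541.5 and 9234.5 in high-fat livers and 2329.6, 1589.0 and 1077.6 in low-fat livers, a log2 fold change of 1.57 ± 0.60 (SE), and high-fat array 1 lay within the low-fat range. Itih4, an inhibitor heavy chain, had 0.32 ± 0.13 (SE). These genes, targets of the same cytokine family, thus included values well below and well above 0.

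Genes with sex-biased liver expression depend on the rhythm of growth hormone secretion, and Bcl6 belongs to the male-biased ones. Of 10 tested male-biased genes 0 passed and 6 had fold changes below 0, with a median of -0.23. Keg1 had -0.84 ± 0.17 (SE), Cyp7b1, an oxysterol hydroxylase, -0.82 ± 0.23 (SE), and Elovl3, a fatty acid elongase, 0.95 ± 0.24 (SE), with adjusted p-values in limma of 0.0715, 0.256 and 0.180. In all 3 the diets did not overlap. Hsd3b2, a hydroxysteroid dehydrogenase, had -0.27 ± 0.12 (SE), also without overlap. That makes 4 of the 10 without overlap, beside 14.1% of all tested probe sets. The major urinary protein genes Mup3 and Mup5, abundant male-biased liver products, had 0.08 and 0.09, on probe sets whose suffix marks family-shared probes.

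Of 6 tested female-biased genes 1 fell and 0 rose, with a median of -0.14. The gene that fell was Cyp2b10, a cytochrome P450 that the receptor CAR also controls, at 314.6, 319.6 and 265.1 in high-fat livers and 818.5, 646.3 and 677.1 in low-fat livers. The log2 difference was -1.25 ± 0.18 (SE), and limma's adjusted p was 0.0173. With each array left out in turn that p ran from 0.0351 to 0.0795, and the call held only when high-fat array 1 or 3 was omitted. Cyp17a1 and Cyp2c39 had 0.06 and 0.21 and did not pass, nor did Cyp3a16 at -0.42, Cyp2c38 at -0.25 and Abcd2 at -0.03. Of the 11 female-biased genes with a probe set, 6 were bright enough to be tested.

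Corepressors and relatives of BCL6 on the array showed 0 of 11 past the threshold, 6 above 0 and a median of 0.06. Bcl6b, the closest relative of Bcl6, had 108.1, 89.7 and 85.2 in high-fat livers and 139.8, 96.1 and 109.0 in low-fat livers, with overlap and a log2 fold change of -0.28 ± 0.26 (SE). Zbtb16, which encodes the BTB zinc finger protein PLZF, had 135.8, 155.1 and 143.1 in high-fat livers and 553.2, 192.8 and 122.3 in low-fat livers. Its log2 fold change of -0.70 ± 0.48 (SE) did not pass, and low-fat array 1 stood far above the other 5. Hdac5 and Ctbp1 had 0.45 ± 0.17 and 0.31 ± 0.14 (SE), with adjusted p-values of 0.448 and 0.535 in limma. Of 5 tested genes that BCL6 is known to repress in B cells 0 passed, with a median of 0.06. Cdkn1a, the cell cycle inhibitor p21, had 0.84 ± 0.36 (SE) with an adjusted p of 0.532, while Prdm1 and Ccnd2 had -0.24 and -0.33 and the chemokine gene Ccl3 had 0.22.

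BCL6 is known in mouse liver to sit near the binding sites of PPAR-alpha at genes that burn fatty acids. Of 13 tested genes of that kind 1 rose, and all 13 had fold changes above 0, with a median of 0.32. Over all genes tested, 3363 of 6557 lay above 0. The gene that rose was Vnn1, a pantetheinase, at 1426.0, 3229.7 and 3509.3 in high-fat livers and 591.4, 702.5 and 682.1 in low-fat livers, with a log2 fold change of 1.94 ± 0.30 (SE) and an adjusted p of 0.0217 in limma. That p was 3.77e-04 to 0.0983 with each array left out, and only the fits without high-fat array 1 or 3 kept the call. Ehhadh, an enzyme of peroxisomal oxidation, had 0.61 ± 0.13 (SE) with an adjusted p of 0.0880. Cyp4a10, a fatty acid hydroxylase, had 0.62 ± 0.19 (SE), Pdk4, a brake on glucose oxidation, 1.02 ± 0.38 (SE), and Acadm, a dehydrogenase of mitochondrial oxidation, 0.35 ± 0.14 (SE), all without overlap and short of the threshold. Ppara itself had 0.01. Much of this list was known to lie above 0 when it was drawn up.

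Liver transcription factors had 0 of 9 past the threshold, 3 above 0 and a median of -0.12. Foxa1 and Foxa3, forkhead factors of hepatocytes, had 0.55 ± 0.24 and -0.41 ± 0.18 (SE), both with an adjusted p of 0.551 in limma, and Nr5a2, a nuclear receptor of bile acid synthesis, had -0.23 ± 0.14 (SE). Onecut1, whose product HNF6 is induced by growth hormone in rat liver, had 695.6, 434.8 and 271.7 in high-fat livers and 321.3, 297.8 and 263.8 in low-fat livers, that is 0.57 ± 0.32 (SE) on the log2 scale, and limma's adjusted p was 0.687. As with Socs2, high-fat array 1 stood above the rest. Hnf4a had -0.29 and, as with Ghr 99107_at, its highest values on the arrays numbered 3, at 1772 in high-fat livers and 1752 in low-fat livers.

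**Figure D5:**
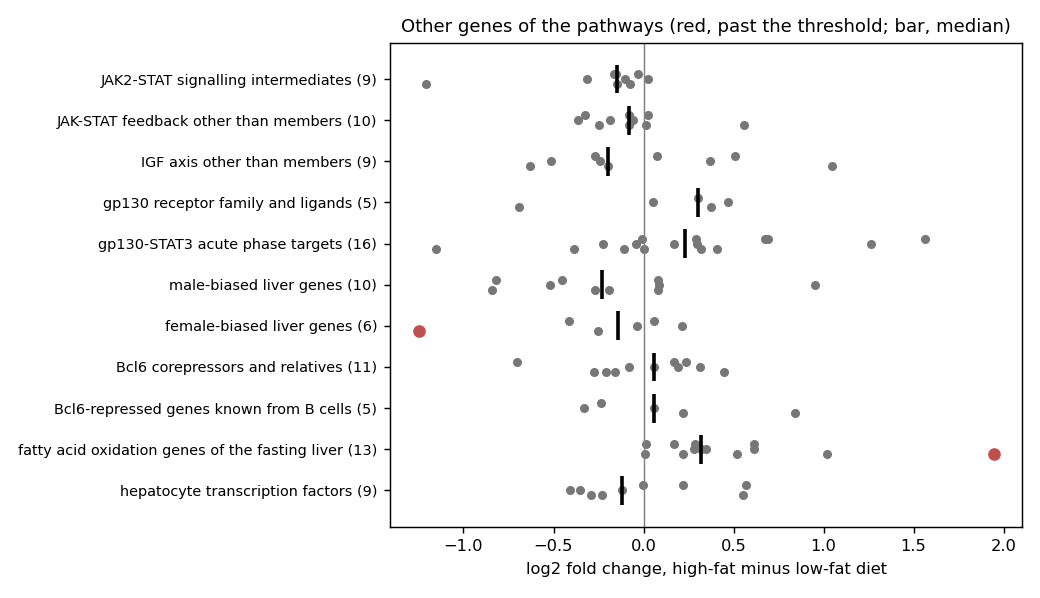
Log2 fold change, high-fat minus low-fat diet (horizontal axis), of the tested genes of 11 lists around the 10 genes, with the number tested in brackets, a bar at each list's median and red points for genes past an adjusted p of 0.05. Only Cyp2b10 at -1.25 and Vnn1 at 1.94 are red, and the medians lie between -0.23 and 0.32.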

How the data were processed

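Liver RNA of 6 samples was measured on Affymetrix-type probe sets, as the probe names in the deposited table show. The values the authors deposited are linear intensities, 1 per probe set and array; software, background correction and genome build: not given in the sources used here. Their equal trimmed means show that each array had been scaled, and this was kept. Diet and replicate came from the titles.

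Probe sets were named from the platform's gene table: 10855 had 1 symbol, 396 several and 1237 none listed. Values under the pooled 30th percentile, 68.9, were raised to it and log2 was taken. Probe sets above it on at least 3 of 6 arrays were tested, without the 66 control probe sets, by limma 3.58.1 in R 4.3.3 (lmFit, eBayes with trend, two-sided), and p-values were adjusted over all 8950. A gene in a list is represented by its probe set of highest mean log2 value. SE is limma's moderated standard error. The number of arrays limits the precision.

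Genes named are all probe sets of the 10 genes, the 5 nearest to Bcl6 and to Lifr, and, of each list, those past the threshold and up to 4 others by smallest p. Jak2, Osmr, Igf1r, Igfbp1, Mup3, Mup5, Cyp17a1, Ppara and Hnf4a were named for their role after their values were seen. The 10 genes and the lists were chosen with earlier results of these data known. The fit was tested on simulated data.

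The labels do not say that a replicate number pairs arrays, and the main fit did not pair them. Deviations of same-numbered arrays from their diet means correlated at 0.07, 0.11 and 0.31. The arrays numbered 3 correlated at -0.21 to -0.12 with arrays of other numbers in the other diet. Deviations within a diet sum to 0, so these negative values follow at least in part from the 0.31 and are no separate evidence. Whether same-numbered arrays were handled together is not given.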

Additional observations from a re-analysis of the deposited data

How the results depend on the processing

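Over 17 other settings, Bcl6 stayed past the threshold in 16, Lifr 104658_at in 13 and 104659_g_at in 14. All 3 lost the call without a filter on dim probe sets, and the Lifr probe sets also without the variance trend. Bcl6 and Lifr were chosen by their difference in these data, so calls kept across settings add no support. Without array 3 of either diet, Lifr 104659_g_at lost its call and Bcl6 and 104658_at kept theirs. The probe sets of Igf1, Igfals, Socs2, Socs3, Cish, Stat5a and Stat5b kept their sign wherever they could be fitted. Signs turned only for values near 0. Lifr 103697_at had -0.0088 with quantile normalization, -0.0013 with median scaling and -0.19 to 0.21 with each array left out. Lifr 104657_at had 0.087 with array weights, 0.059 without array 3 of either diet (a setting added after seeing the data) and -0.19 to 0.13 with each array left out. Ghr 99108_s_at had 0.10 without array 3 of either diet and -0.17 to 0.11 with each left out. The causes were not tested.

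Called probe sets numbered 74, with 36 above and 38 below the low-fat diet. There were 8 (4 and 4) without the filter, 20 (6 and 14) without the trend, 38 (16 and 22) without array 3 of either diet, and 26 to 75 (10 to 32 and 16 to 43) with each array left out. Without the filter 12422 probe sets were tested. The replicate block gave 103 calls and changed no call of the 10 genes. Of 6 arrays, 4 correlated best with the array of their own number. At an unadjusted p under 0.05, limma found 812. Whole-array scaling hides any shift common to most transcripts.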
